A study of Mus musculus with 12 samples.

Results

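Open chromatin of the dentate gyrus was compared between 2 groups of mice, E4 and E0, with 4 libraries each out of the 12 libraries of the series. The libraries were chosen by their titles, E4 replicates 1 to 4 and E0 replicates 1 to 4. All 8 mice were C57BL/6, 8 weeks old, and each library came from the microdissected dentate gyrus of 1 mouse. The labels give no treatment, time or sex and do not say what the E0 mice received. The published study, rather than the labels, gives the meaning: E0 mice were taken before and E4 mice 4 h after electroconvulsive stimulation, which makes the granule neurons fire together. The E1 libraries (4, taken 1 h after stimulation by the same account) are given beside some regions and enter no test.

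The dentate gyrus is the entry gate of the hippocampal circuit, and its principal cells are the granule neurons. ATAC-seq uses a transposase that cuts where DNA is free of nucleosomes, so its peaks mark promoters, enhancers and other regulatory DNA. Strong activity switches on immediate early transcription factors such as those of the Fos and Jun families, and these are known to bind distal enhancers in neurons, where they act with chromatin remodellers. Accessible regions can thus appear, widen or fade within hours. The tissue also holds interneurons, glia and vessel cells, and in whole tissue fewer cells of a type and less accessibility per cell cannot be told apart. The gene table at hand is of another genome build than the peaks, so no region was tied to a gene, no sequence was printed and the tissue label was not checked against marker loci.

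The data are 1 list of peaks per mouse on chromosomes 1 to 19 and X, in mm9 coordinates. Peak numbers in E0 were 61462, 77130, 36861 and 45005 for replicates 1 to 4. In E4 they were 104120, 34863, 24426 and 31742. E4 replicate 1 thus had the longest list of the 8 and the other 3 E4 libraries the shortest. Read depth is unknown, and list length moves with it as well as with accessibility. The lists were therefore also compared at equal length, each cut to its 24426 highest scores. The score kept last was 309.71 in E4 replicate 1, 50 to 69.48 in the other E4 lists and 75.95 to 182.19 in the E0 lists. At equal length E4 replicate 1 still covered 25.3 Mb, against 7.48 to 10.1 Mb in the other E4 lists and 10.1 to 21.4 Mb in E0. The 8 values per library did not separate the groups (adjusted p from 0.914 to 1, exact two-sided permutation test over 70 assignments with Benjamini-Hochberg adjustment, smallest possible unadjusted p 0.0286, n = 4 per group). Peak number was 48788 ± 37147 in E4 and 55115 ± 17892 in E0 (SD, n = 4), a difference of -6327 that turned to 1012 without E0 replicate 2 and 1794 without E4 replicate 3.

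**Figure D1:**
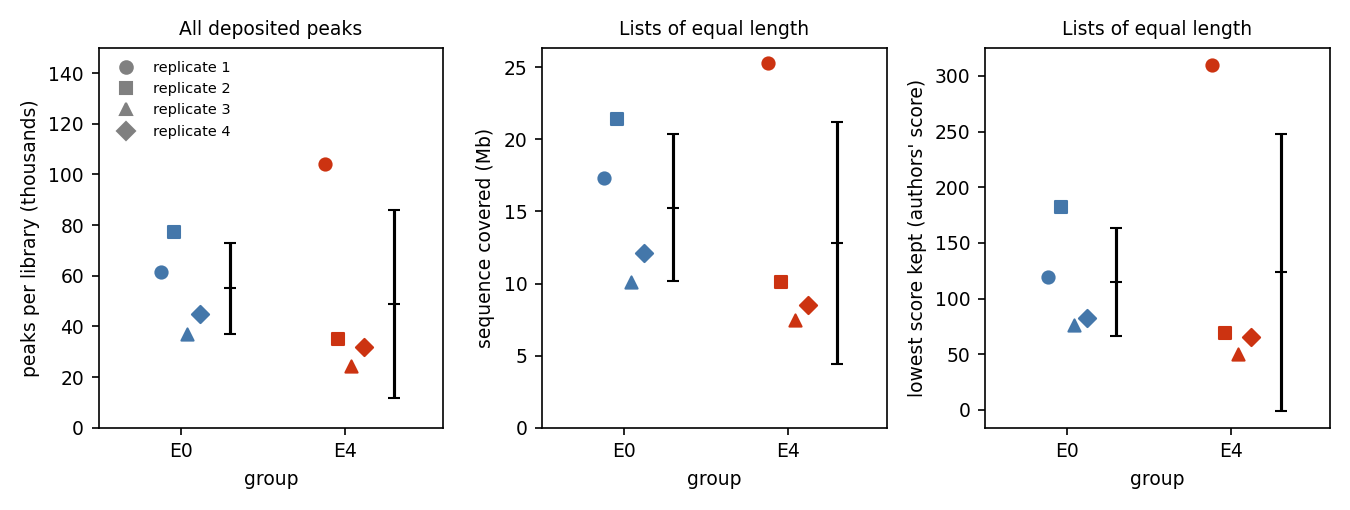
Peaks per library (left), sequence covered at equal list length in Mb (middle) and the lowest score kept at equal length (right) for E0 and E4; symbols are mice, the black bars are the mean and SD (n = 4). E4 replicate 1 lies above every other library in all 3 panels, at 104120 peaks, 25.3 Mb and a score of 309.71.

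A small set of regions had a called peak in every E4 list and in no E0 list, and another set showed the reverse. A missing peak means that none was called there, not that the chromatin was closed. Peaks of the 8 lists that shared at least 1 bp were joined, which gave 141619 regions. Of these, 233 had a peak in 4 of 4 E4 and 0 of 4 E0 libraries (0.165% of all regions) and are called gained, and 249 had the reverse (0.176%) and are called lost. With lists of equal length there were 58952 regions, of which 465 were gained (0.789%) and 621 lost (1.05%). A single region cannot pass a test on presence, since Fisher's exact test gives 4 of 4 against 0 of 4 a p of 0.0286 before adjustment. The counts are therefore a description.

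Gained and lost regions were a small share of all regions. As deposited, 9324 regions had a peak in all 8 lists and 60815 (42.9%) in 1 list only. E4 replicate 1 alone held 29412 of the latter. Next to the gained and lost corners, 955 regions had a peak in 3 E4 libraries and none in E0, and 988 had a peak in 3 E0 libraries and none in E4. At equal length these numbers were 1127 and 1195. Each of these numbers pools every choice of 3 libraries out of 4, while gained and lost are a single pattern each. Among regions in 4 of the 8 lists, gained and lost made up 2.06% and 2.20% as deposited, and 11.2% and 15.0% at equal length.

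**Figure D2:**
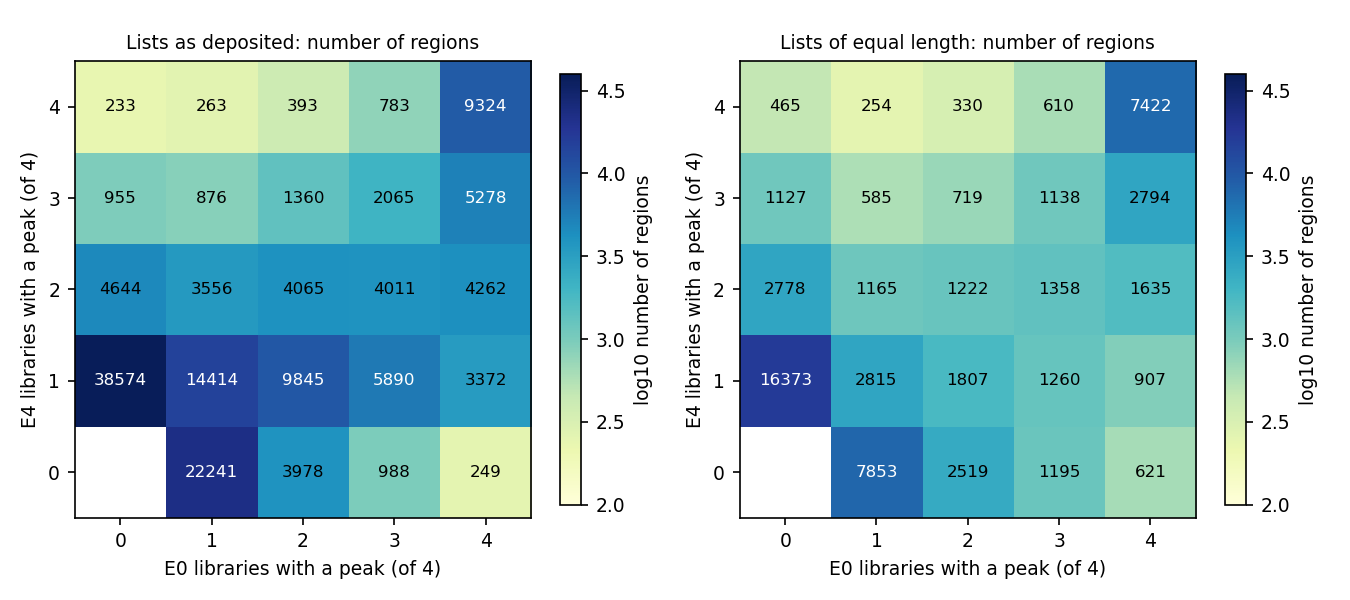
Number of regions by how many E0 libraries (x axis) and E4 libraries (y axis) had a peak there, with lists as deposited (left) and of equal length (right); colour is log10 of the number. The gained corner (top left) holds 233 and 465 regions, the lost corner (bottom right) 249 and 621, and the corner of all 8 libraries 9324 and 7422.

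Gained and lost sets differed in how often the full lists of the other group held a lower-scoring peak. Of the 465 regions gained at equal length, 110 (23.7%) had no E0 peak in the full lists either, and 15 (3.23%) had a lower-scoring peak in all 4 E0 lists. Weaker peaks were found most often in E0 replicate 2, which held one at 309 of the 465 (66.5%), and least often in E0 replicate 3, at 65 (14.0%). Those are the longest and the shortest E0 lists, and the counts followed list length over the 4 E0 libraries. Of the 621 regions lost at equal length, 17 (2.74%) had no peak in any full E4 list. A lower-scoring peak in the long list of E4 replicate 1 was present at 603 (97.1%) of the lost regions. The other E4 lists held few such peaks, at 87 regions in replicate 2, 36 in replicate 4 and 0 in replicate 3, whose list was not shortened. The regions lost with lists as deposited are thus those that the long list of E4 replicate 1 also lacks, and without that library the lost number rose from 249 to 3613.

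Leaving out a library lowers the requirement to 3 in its group, and each of these counts moved with it. As deposited, the gained number was over 1.5 times higher without E0 replicate 2 (420) or E4 replicates 2, 3 and 4 (423, 748 and 483). The lost number was likewise higher without E0 replicates 1, 3 and 4 (389, 750 and 556). At equal length, gained regions numbered 708, 953 and 789 without E4 replicates 2, 3 and 4, and lost regions 989, 935 and 1098 without E0 replicate 3, E0 replicate 4 and E4 replicate 1.

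Gained regions stood near the middle of the E4 lists and lost regions somewhat lower in the E0 lists. At equal length the median gained region stood at a mean percentile of 53.1 of the E4 scores (100 being the highest score of a list), and the median lost region at 40.2 of the E0 scores. The other 3067 regions found in 4 of the 8 lists had a median of 34.1 in the lists that hold them. Within single E4 lists the median of the gained regions was 56.9, 52.4, 62.2 and 54.7 for replicates 1 to 4. In E0 lists the lost regions had medians of 39.6, 36.5, 47.7 and 43.9. No test was made, since percentiles of regions chosen by presence follow in part from that choice.

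The width of a gained region was set mostly by E4 replicate 1. Gained regions had a median width of 771 bp and lost regions of 633 bp at equal length, against 693 bp for the other regions in 4 of the 8 lists. A peak of E4 replicate 1 spanned the whole region in 428 of the 465 gained regions (92.0%). The median bp covered was 769 in that library and 349, 274 and 300 in E4 replicates 2, 3 and 4. When peaks of a library had to cover at least 50% of a region, 26 gained and 433 lost regions were left at equal length, and 17 and 161 as deposited. In lost regions the covered length was more even, with medians of 489, 585, 324 and 392 bp in E0 replicates 1 to 4.

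The 8 gained regions named below had a peak in every E1 list too. They were chosen for high E4 ranks and no E0 peak, and the share over all gained regions is not given. Of the 9324 regions shared by all 8 E0 and E4 lists, 96.7% had a peak in all 4 E1 libraries. Shared regions stood higher in their lists, at a median percentile of 83.8 as deposited against 55.3 for gained regions. Their share is thus no base rate for gained regions. Of the 110 regions gained both as deposited and at equal length, the 8 with the highest mean percentile in the E4 lists are described here, with percentiles at equal length. The leading region, chr18:31626588-31627318 (731 bp), stood at percentiles 83.1, 88.9, 86.9 and 80.6 in E4 replicates 1 to 4, had no peak in E0 and ranged from 49.3 to 87.6 in E1. Its 4 E4 mice were close together, with an SD of 3.71. The region at chr18:12769458-12770505 (1048 bp) had 91.1, 61.2, 93.3 and 81.2 in E4 and 65.0 to 96.1 in E1. At chr4:17576455-17577230 (776 bp) the E4 percentiles were 72.1, 82.5, 86.8 and 83.7, and E1 ranged from 59.9 to 90.9. Next came chr18:70550746-70551720 (975 bp), at 84.9, 89.3, 73.7 and 75.4 in E4 and 38.1 to 85.5 in E1. Of these 4 regions, the one at chr18:12769458-12770505 varied most between E4 mice, through the low value of replicate 2.

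The remaining 4 named gained regions had SDs of 10.8 to 28.9 across the E4 mice. The region chr1:40415500-40416355 (856 bp) had E4 percentiles of 73.6, 93.2, 68.2 and 80.7, below its E1 percentiles of 89.4 to 95.8 in 3 of the 4 mice. At chr14:88965208-88966085 (878 bp) E4 had 65.2, 68.7, 79.5 and 90.1 and E1 had 65.1 to 99.0. The region chr3:126622913-126624327 (1415 bp) stood low in E4 replicate 1, with 40.04 there and 81.7, 91.7 and 71.5 in the rest, and E1 ranged from 68.1 to 91.7. The last, chr3:120828740-120830000 (1261 bp), was low in E4 replicate 4, with 90.3, 77.7, 87.6 and 28.4, and E1 ranged from 80.6 to 90.4. In all 8 named regions no E0 list held a peak, also in full, so the groups did not overlap, which the choice of the regions fixes. With lists cut to 12213 peaks 6 of the 8 were still in 4 of 4 E4 and 0 of 4 E0 lists, and with 50% of the region covered 2 of the 8 were. The cut to 12213 keeps only peaks above percentile 50, so its result follows from the percentiles given and is no further check.

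The named lost regions had mean E0 percentiles of 36.7 to 56.5, and the named gained regions 71.0 to 84.9 in E4. These ranges are not compared, since the 8 gained regions were the highest of 110 and the 8 lost regions the highest of 17. Of the 17 regions lost both ways, the 8 with the highest mean E0 percentile are given. The leading region, chr10:110273639-110274230 (592 bp), had percentiles of 45.6, 52.0, 59.3 and 69.0 in E0 replicates 1 to 4 and no peak in E4. At chr15:43748997-43749739 (743 bp) the E0 percentiles were 58.7, 18.7, 69.0 and 63.6, lowest in replicate 2. The region chr8:130003756-130004447 (692 bp) ran from 20.4 in E0 replicate 3 to 79.7 in replicate 2, with 36.1 and 71.8 in replicates 1 and 4. After the first, the region with the smallest SD was chr13:34879358-34879954 (597 bp), with 30.5, 54.2, 52.5 and 51.4.

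The remaining 4 named lost regions had mean E0 percentiles of 36.7 to 40.2. At chr3:66399151-66399832 (682 bp) E0 had 27.3, 30.8, 66.5 and 36.3. The region chr3:158054419-158055171 (753 bp) had 53.3, 21.3, 13.5 and 65.6, and chr1:144318939-144319961 (1023 bp) had 18.1, 22.7, 42.8 and 69.0. The last, chr10:100620151-100620763 (613 bp), lay between 65.3 in E0 replicate 1 and 0.923 in replicate 4, with 25.5 and 55.3 in replicates 2 and 3. At equal length the 8 regions had no E1 peak, except the second, at percentile 18.2 in E1 replicate 4. The full E1 lists held a peak in 4 of 4 libraries at the chr13 region, in 3 at the chr15 region, in 2 at chr3:158054419-158055171, in 0 at the last and in 1 at each of the others. None of the 8 kept 4 of 4 against 0 of 4 with lists cut to 12213 peaks, and 4 of the 8 did so with 50% of the region covered. Each of the 8 had an E0 percentile under 50, so the result of the cut follows from the percentiles given.

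**Figure D3:**
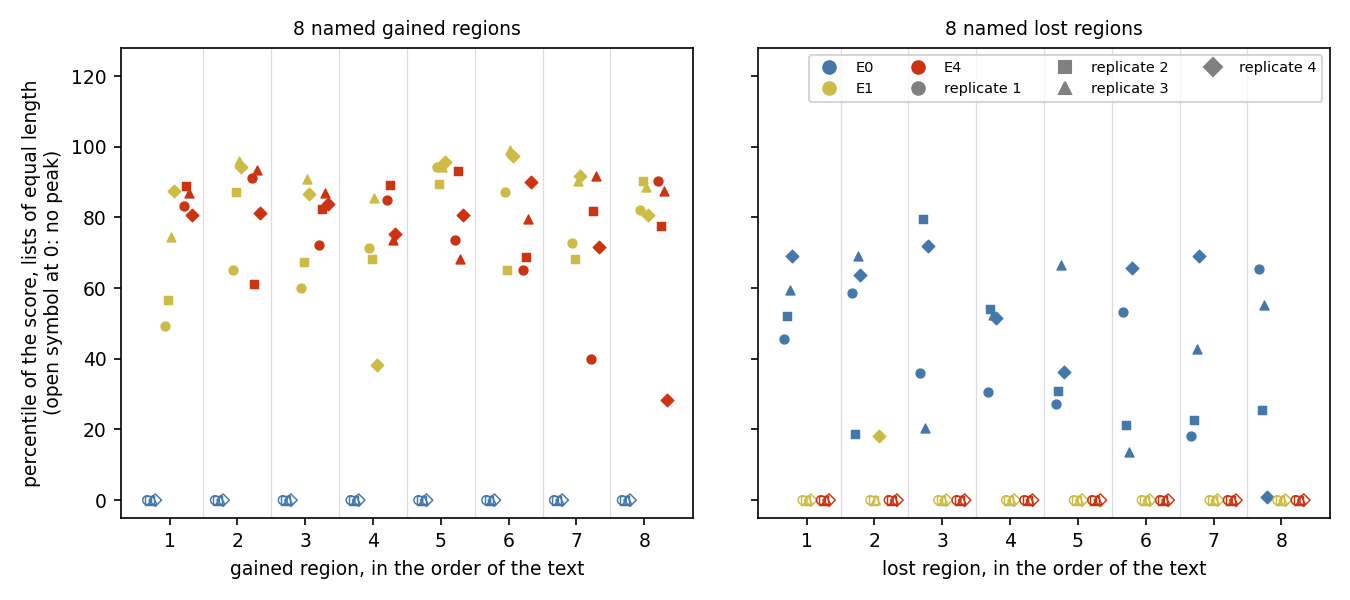
Percentile of the score in lists of equal length for the 8 named gained regions (left) and the 8 named lost regions (right), in the order of the text; each symbol is a mouse, colour is the group, and an open symbol at 0 means no peak. Gained regions lie between 28.4 and 93.3 in E4, while lost regions spread from 0.923 to 79.7 in E0.

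Regions that all 4 mice of a group held were kept by the other group according to their rank. At equal length 13379 regions were in all 4 E0 lists, of which 7422 (55.5%) were also in all 4 E4 lists and 621 (4.64%) in none. The regions were put into 5 classes of equal size by mean E0 percentile. In the lowest class 16.1% were in all 4 E4 lists and 15.5% in none. These shares were 53.1% and 1.20% in the middle class. In the highest class 97.3% were in all 4 E4 lists and 0 of 2676 were in none. The strongest open regions of the E0 mice were thus found again in E4, and the lost regions were among the weaker ones. A list cut to its highest scores keeps strong regions and drops weak ones. Part of this gradient, seen from either group, is therefore built in. The 13379 regions were found in 89.1% of cases in E4 replicate 1, 80.7% in replicate 2, 68.2% in replicate 3 and 77.8% in replicate 4.

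Seen from the E4 side, 9081 regions were in all 4 E4 lists, of which 81.7% were in all 4 E0 lists and 5.12% in none. The share in none fell from 14.0% in the lowest of 5 classes by mean E4 percentile to 3.36% in the middle class and 1.38% in the next, and to 0 of 1817 in the highest. Each E0 list held 87.8% to 91.0% of the 9081 regions, a narrower spread than that of the E4 lists over the E0 regions.

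Among regions open in all 8 mice, 21 ranked higher in E4 and 0 ranked lower at the threshold used. Each library ranked the highest score per region over the same 9324 regions, and percentiles were compared with limma (adjusted p under 0.05, Benjamini-Hochberg over the 9324 regions). The 21 make up 0.225% of the regions tested. List length still bears on which regions are in the set, which grew to 13026 without the shortest list, that of E4 replicate 3, and on their width. At an unadjusted p under 0.05 there were 536 regions higher and 423 lower in E4 by limma, and the counts past adjustment were 53 and 1 with normal scores of the rank and 59 and 6 without a trend in the prior variance. The E4 percentiles lay all above the E0 percentiles in 330 regions (3.54%) and all below in 234 (2.51%). The median difference over all 9324 regions was -0.54 percentile points and the middle 50% ran from -8.30 to 7.35.

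The 21 calls need all 8 mice. Leaving out any single E0 library, or E4 replicate 3 or 4, left 0 regions past the threshold, and 1 was left without E4 replicate 1 and 3 without E4 replicate 2 (limma, adjusted p). The differences stayed above 0 in each of the 21 in these fits, except that without E4 replicate 1 no value was found for 2 of them. Taking the mean of the peak scores in a region in place of the highest left 1 call, and all 21 differences again stayed above 0. Signs that stay the same are no further support for the calls. With all 8 mice, E0 and E4 percentiles did not overlap in any of the 21, so a sign could hardly turn.

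**Figure D4:**
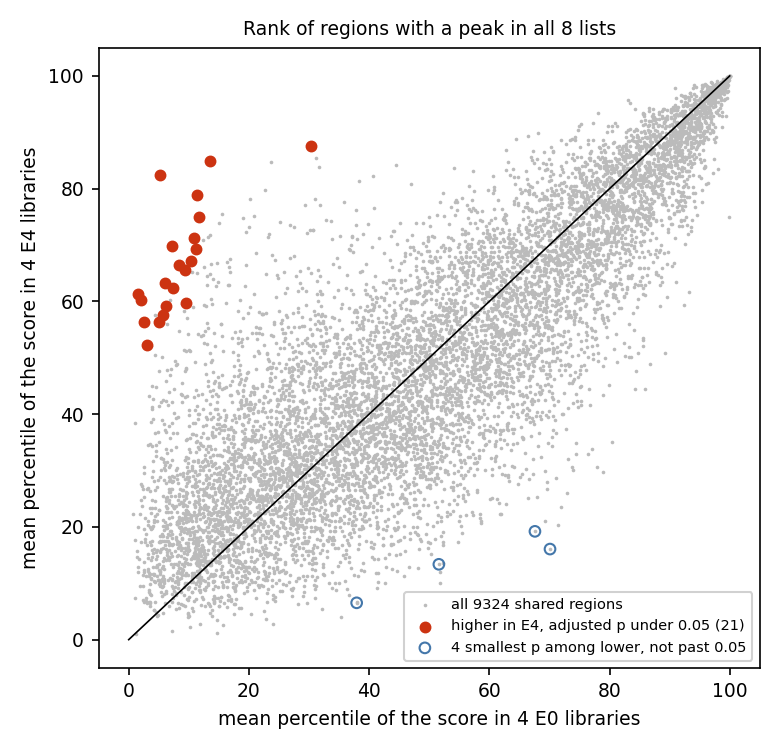
Mean percentile of the score in E0 (x axis) and E4 (y axis) for the 9324 regions with a peak in all 8 lists; red points are the 21 regions past the threshold, open blue circles the 4 lower regions with the smallest p, and the line marks equal ranks. The red points lie at E0 means of 1.51 to 30.4 and E4 means of 52.2 to 87.5.

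The 21 regions went from low E0 ranks to above the middle of the E4 ranking on average. Their median percentile was 7.39 in E0 and 65.6 in E4, and the differences ran from 49.1 to 77.2 points with standard errors of 8.33 to 11.5 (limma, adjusted p from 0.0278 to 0.0487). E0 and E4 did not overlap in any of the 21. The E1 mice, ranked over the same regions, had a median of 65.9, with region means from 36.7 to 92.4. The E4 and E1 values are set beside the same E0 mice, so the likeness of the 2 rises was not tested. The median width of the 21 was 1268 bp, against 1315 bp for all 9324 regions, and they lay on 12 chromosomes, with 4 each on chromosomes 3 and 8.

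The largest rise was at chr14:106073866-106075672 (1807 bp). It stood at percentiles 6.13, 4.54, 1.35 and 8.74 in the E0 mice and at 76.9, 74.6, 92.6 and 85.6 in the E4 mice, in the order of the replicates. The 4 E0 mice placed it among their weakest shared regions and the 4 E4 mice in the upper part of theirs. The difference was 77.2 ± 10.02 points (SE, limma, adjusted p = 0.0278). E1 had 82.2, 90.3, 62.5 and 88.5.

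The next 3 regions by size of the rise showed the same order of the groups. At chr13:9238467-9239522 (1056 bp) E0 had 20.4, 13.2, 17.3 and 3.38, and E4 had 89.9, 93.1, 75.2 and 81.9, a difference of 71.4 ± 10.7 (SE, limma, adjusted p = 0.0426). The region chr4:94667750-94668797 (1048 bp) was the one with the smallest E4 spread among the 8 named, at 81.9, 80.0, 78.7 and 74.96, after 3.04, 15.8, 24.4 and 2.36 in E0. At chr8:27832661-27833965 (1305 bp) E0 had 23.1, 6.02, 7.69 and 10.1 and E4 had 64.2, 65.1, 95.9 and 74.7, highest in replicate 3. In each of these the lowest E4 mouse stood above the highest E0 mouse.

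The other 4 named regions rose by less, with E4 SDs of 11.3 to 20.4. At chr5:63998339-63999686 (1348 bp) E4 replicate 3 was low, at 41.8 against 86.3, 83.7 and 67.8, and E0 had 2.27, 7.39, 17.2 and 2.17. The region chr9:83381340-83382743 (1404 bp) had 94.9 in E4 replicate 1 against 62.1, 62.3 and 65.4, and 7.04, 13.1, 14.1 and 9.44 in E0. At chr1:17000160-17001521 (1362 bp) E0 had 0.997, 0.922, 2.77 and 1.35, the lowest E0 values of the 21 regions on average, and E4 had 50.9, 54.99, 63.2 and 76.4. The last, chr3:143828947-143830355 (1409 bp), had 1.51, 2.27, 4.09 and 0.461 in E0 and 76.9, 36.9, 59.9 and 67.0 in E4, lowest in replicate 2. Differences of these 4 regions were 58.1 to 62.6 points (limma, adjusted p from 0.0426 to 0.0487).

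Peak length did not follow rank in every mouse. At chr14:106073866-106075672 peaks covered 709, 961, 465 and 738 bp in E0 replicates 1 to 4 and 1807, 605, 483 and 390 bp in E4 replicates 1 to 4. E4 replicate 1 spanned the region, and the other 3 E4 mice lay below 3 of the 4 E0 lengths. At chr13:9238467-9239522 the lengths were 591, 475, 251 and 300 bp in E0 and 1056, 701, 490 and 629 bp in E4, where 3 of the 4 E4 mice exceeded every E0 mouse. Lengths also follow the library: the median length covered over the 9324 regions was 1244 bp in E4 replicate 1, 370 to 524 bp in the other E4 libraries and 529 to 1061 bp in E0, and their part in the ranks was not tested.

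**Figure D5:**
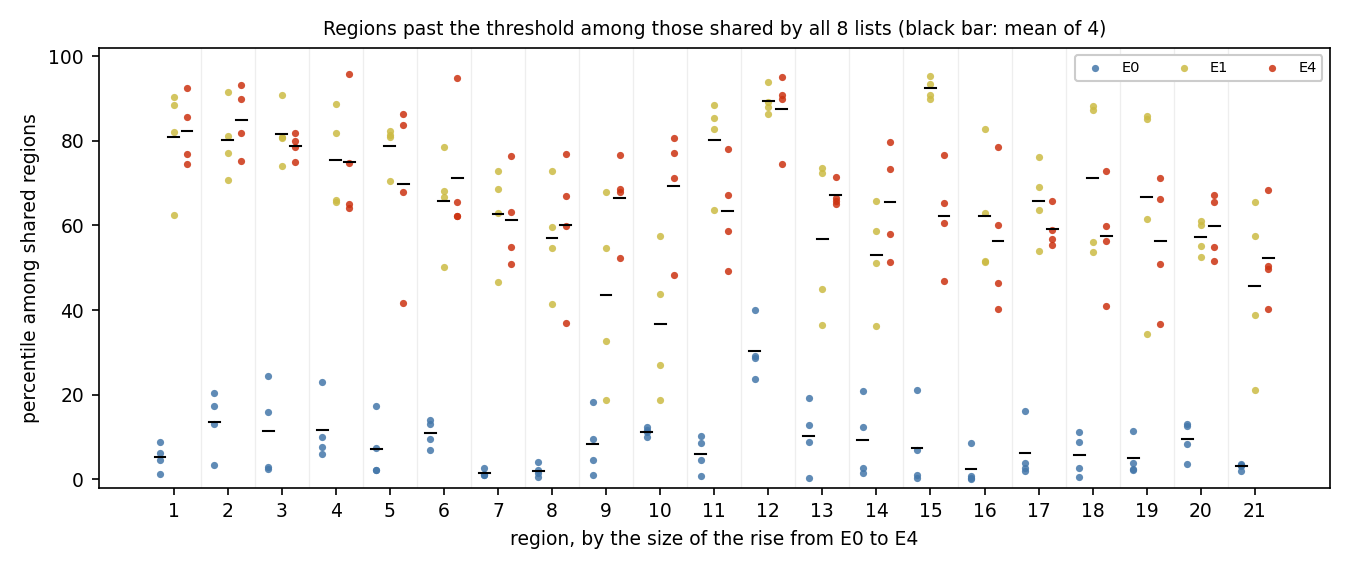
Percentile among the 9324 shared regions for the 21 regions that ranked higher in E4, ordered by the size of the rise; points are mice (blue E0, yellow E1, red E4) and black bars are means of 4. E0 points reach up to 39.93 and E4 points down to 36.8, and within each region the E0 and E4 points do not overlap.

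Regions that ranked lower in E4 did not pass the threshold, and the 4 with the smallest p are given as values. At chr8:46712624-46713825 (1202 bp) E0 had percentiles of 54.5, 71.0, 77.5 and 77.4 and E4 had 33.0, 17.1, 13.0 and 1.19 (limma, adjusted p = 0.0667). The region chr8:79780226-79781365 (1140 bp) had 39.0, 49.0, 30.3 and 33.4 in E0 and 11.3, 5.88, 4.64 and 4.31 in E4 (limma, adjusted p = 0.108). At chr6:25637514-25640847 (3334 bp) E0 had 36.0, 53.55, 57.1 and 59.8 and E4 had 14.7, 5.90, 18.8 and 14.1. The fourth, chr4:17712155-17712983 (829 bp), had 72.3, 62.5, 52.3 and 83.2 in E0 and 19.6, 10.8, 6.55 and 39.9 in E4. The groups did not overlap in any of the 4, and E1 means were 40.1, 23.9, 25.2 and 35.7, between the E0 and E4 means in each. The 4 were chosen for their E0 and E4 values, so both observations follow in part from that choice. A graded fall over E0, E1 and E4 was not tested.

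Presence and rank were also tested together over the 21320 regions with a peak in at least 4 of the 8 lists of equal length, a region without a peak counting as percentile 0. By limma, 432 regions were past the threshold as higher in E4 (2.03%) and 370 as lower (1.74%). These counts are a description, because a region that met the minimum of 4 lists through 1 group alone had to differ between the groups. That was so for 264 of the 432, with no E0 peak, and for 211 of the 370, with no E4 peak. With regions in at least 2 lists the counts were 0 and 0, and with at least 50% of the region covered they were 0 and 0 (limma, adjusted p; 1950 and 2796, and 107 and 1818, at an unadjusted p under 0.05). With normal scores of the rank the split was 894 higher and 195 lower. The median difference over all 21320 regions was -4.84 percentile points. The test was against a difference of 0 and not against that shift, which is thus part of the split between higher and lower. Of the 432 higher regions, 17 had a peak in all 4 E0 lists. The median E4 percentile of the 432 was 65.6 and the median E0 percentile 0. Of the 370 lower regions, 3 had a peak in all 4 E4 lists. The median E0 percentile of the 370 was 56.5 and the median E4 percentile 0. Of the 21 shared regions with a higher rank, 19 overlapped one of the 432. Both fits use the same scores of the same 8 libraries, so this overlap is no independent support. Leaving out any of the 8 libraries (E0 or E4 replicate 1, 2, 3 or 4) left 0 regions past the threshold in either direction (limma, adjusted p; 780 to 1170 higher and 1320 to 2705 lower at an unadjusted p under 0.05).

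Similarity between whole lists was compared last. At equal length the Jaccard index, shared bp over union bp, was 0.439 ± 0.0743 among E0 libraries (SD, 6 pairs), 0.278 ± 0.0657 among E4 libraries (SD, 6 pairs) and 0.321 ± 0.0833 between the groups (SD, 16 pairs). Within-group pairs exceeded between-group pairs by 0.0376 (exact permutation test over 35 splits, one-sided, p = 0.171). Without E4 replicate 1 the difference was 0.1003 (exact permutation p = 0.0286, unadjusted, the smallest these splits can give). Leaving out any other single library gave 0.000602 (without E0 replicate 1) to 0.0601 (without E4 replicate 2), with exact permutation p from 0.114 to 0.457. E4 replicate 1 was most like E0 replicate 2, with an index of 0.518, above every pair within E4 (0.179 to 0.371). Both had the longest list of their group. At equal length they also covered the most sequence, 25.3 and 21.4 Mb, against 7.48 to 10.1 Mb in the other E4 lists. Unlike covered lengths limit how high the index of a pair can be. Their part in these indices, and in the difference without E4 replicate 1, was not tested. Ranks over the 9324 shared regions correlated at 0.762 to 0.894 between E0 mice, 0.540 to 0.704 between E4 mice and 0.518 to 0.8292 across groups (Pearson, across regions of a pair of libraries, which are not independent replicates).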

How the data were processed

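ATAC-seq peak lists of 8 mouse dentate gyrus libraries were used, 1 mouse each, grouped by sample title into E0 and E4. The authors deposited 1 list per library with a score per peak. The scale of the score is not stated, so it served only to rank and filter peaks within a list, and the scores are the authors' own. Peak names carry the prefix MACS, per the file contents, and the submitters' processing notes name Bowtie2 and mm9. Caller version, control, threshold, read shift, duplicate handling and blacklist are not stated in those sources. Depth is unknown and no interval for a peak can be given. Peaks reach position 197105523 of chromosome 1, while the GRCm38 gene table ends at 195291439, so that table's coordinates and promoter sequences were not used.

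Peaks on chromosomes 1 to 19 and X of the 8 lists that shared at least 1 bp were joined in Python 3.11.15 (bedtools 2.31.1 gave the same 141619 regions). Ranks were tested with limma 3.58.1 in R 4.3.3 (trended prior variance, no block). Joining, the gained and lost counts and limma were tried on simulated data with alike list lengths and noise in all libraries, unlike these lists. The permutation tests and the Jaccard index were not simulated. Values per library were compared by exact permutation. Replicate numbers recur in both groups, but nothing in the labels says that they pair mice. Named regions were the 8 gained and 8 lost under both list lengths with the highest mean percentile, the 8 shared regions past the threshold with the largest rise, the 4 lower regions with the smallest p (none passed) and the 4 shared regions with the highest mean rank. The groups, lists and rules were chosen with earlier results of these data known. Alternatives were another joining distance, a covered share, a stricter score, other list lengths, scales, filters and variance models, a replicate block and leaving out each library. Genes near regions were to be tested only with an mm9 annotation and were not analysed here.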

Additional observations from a re-analysis of the deposited data

Results flagged for a closer look

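A value was marked where the highest or lowest of 4 mice of a group lay so far from its neighbour that the gap, divided by the group's range, exceeded Dixon's 95% critical value for 4 samples. Of 64 groups of values examined, 7 were marked, and chance marks about 1 in 20.

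E4 replicate 1 stood above the other E4 mice in peak number (104120), in covered length as deposited (59.5 Mb) and in covered length (25.3 Mb), median width (871 bp) and lowest score kept (309.71) at equal list length. Its percentile of 94.9 at chr9:83381340-83382743, the sixth region by rise, was also far above the other E4 mice. At the lost region chr13:34879358-34879954, E0 replicate 1 stood apart from the other E0 mice at percentile 30.5.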

How the results depend on the processing

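Depth is unknown, so a missing peak does not show closed chromatin, and 4 mice per group with 1 very long list limit every count. As deposited, gained and lost numbers were 17 and 161 with 50% of the region covered, 54 and 76 with scores of at least 100, and 1188 and 1237 for at least 3 of 4 against 0 of 4. At equal length 50% coverage left 26 gained regions, and lists of 12213 peaks gave 229 and 226. Joining peaks up to 100 bp apart kept each count within 1.5 times. Without 1 library, gained ran from 239 to 748 and lost from 257 to 3613 as deposited, and from 519 to 953 and from 736 to 1098 at equal length.

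Higher and lower shared regions numbered 53 and 1 with normal scores, 59 and 6 without a variance trend and 1 and 0 with mean scores, and from 0 to 3 were higher without 1 library. For the equal-length fit the numbers were 0 and 0 with 50% coverage, 82 and 27 with lists of 12213 peaks, 894 and 195 with normal scores, 615 and 756 without a trend, 0 and 0 with regions in at least 2 lists and 0 and 0 without any 1 library. The cause was not tested.

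With the replicate block, 0 shared and 0 equal-length regions passed in either direction. Deviations of same-numbered mice from their group means correlated at 0.138, 0.0187, 0.166 and 0.0892 for numbers 1 to 4. Mice of different number correlated at -0.268 (E0 replicate 3 with E4 replicate 1) to 0.385 (E0 replicate 2 with E4 replicate 1). The labels do not say whether the numbers pair mice, and whether they do was not tested. Sign changes within pairs of equal number gave adjusted p = 1 for all 8 values per library (exact test over 16 sign changes, smallest possible p 0.125). No paired analysis of the Jaccard index or of presence counts was made.

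Differences per library (E4 minus E0) without 1 library ran from -24771 to 1794 peaks, from -15.1 to 2.37 Mb as deposited, from -17.4 to 4.67 in median score and from -53.2 to 33.4 in the lowest score kept, and the direction of these 4 changed. The Jaccard difference ran from 0.000602 to 0.1003 without 1 library and was 0.0282 with lists as deposited (exact permutation p = 0.171).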

Other observations

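The 4 shared regions with the highest mean percentile, chr1:24618335-24623074, chr2:98506356-98507657, chr12:98299545-98300123 and chr2:22442764-22446099, scored 3100 in each of the 8 lists, except 3091.85 at the last in E4 replicate 2. Their percentiles lay between 99.96 and 99.99 in each mouse. A score of 3100 was the highest in the lists of E0 replicates 2 and 3 and E4 replicates 2, 3 and 4. The ranks are therefore mostly ties at the top of the score and do not show equal accessibility.

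Gained and lost regions at equal length lay on every chromosome analysed. Chromosome 1 had 49 gained and 62 lost regions, which is 10.5% of the gained and 9.98% of the lost, and it held 8.81% of all regions found in 4 of the 8 lists. The X chromosome, singled out after its values were seen, had 4 gained and 24 lost regions among 96 regions found in 4 of the 8 lists, where gained and lost regions were 11.2% and 15.0% of such regions overall. With lists as deposited the X chromosome had 5 gained and 9 lost regions among 321. No test was made. Few of the regions were neighbours: 435 gained regions had no other within 50 kb and the rest formed 15 pairs, while 579 lost regions stood alone and 21 pairs were formed.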
